A study of Mus musculus with 18 samples.

Results

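The nuclear genes for the subunits of the oxidative phosphorylation complexes were followed in bulk brain RNA of mice given the herbicide glyphosate. Members were the rows of the count table whose mouse symbol begins Nduf followed by a, b, c, s or v and a number, is Sdha, Sdhb, Sdhc or Sdhd, or begins Uqcr, Cox4 to Cox8 or Atp5, with pseudogene names ending in -ps left out. This rule uses names alone and gave 83 of the 27179 genes in the table. Of these, 36 belong by name to complex I, 4 to complex II, 8 to complex III, 18 to complex IV and 17 to complex V. All mice were wild-type C57BL/6J, and dosing by oral gavage, once a day over 14 days, began when they were 4 months old. The vehicle group held 5 mice (2 males, 3 females) that received the pH-adjusted sodium hydroxide solution without glyphosate. Glyphosate was given at 125 mg/kg to 5 mice (3 males, 2 females), at 250 mg/kg to 4 mice (3 males, 1 female) and at 500 mg/kg to 4 mice (2 males, 2 females). The animals were housed by sex and dose, so that cage and dose cannot be told apart. RNA came from 1 hemisphere per mouse, and the tissue label was checked against marker genes: pan-neuronal markers summed to between 5425 and 9709 CPM (counts scaled to library size) and astrocyte markers to between 5901 and 10310 CPM in the 18 libraries.

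Oxidative phosphorylation is carried out in the inner mitochondrial membrane. Complex I takes electrons from NADH and complex II from succinate, complex III passes them to cytochrome c, and complex IV hands them to oxygen. The proton gradient that complexes I, III and IV build is used by complex V, the ATP synthase, to make ATP, on which neurons depend heavily for ion pumping. Most subunits are encoded in the nucleus and imported, and a small set at the core of complexes I, III, IV and V is encoded in mitochondrial DNA. Several complex IV subunits have tissue-specific versions, with separate genes for striated muscle, lung or testis.

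The members took between 0.217% and 0.394% of all counts in a library, and library totals ran from 3948096 to 11732885 counts. CPM here are scaled by trimmed-mean factors. Values compared between genes are divided by the median length of a gene's protein-coding transcripts (CPM per kb). A dose slope is the fitted log2 change from 0 to 500 mg/kg with sex in the model, given with its standard error (SE). Of the 83 members, 74 had enough counts to be tested among 15863 genes, namely 34 of complex I, 3 of II, 7 of III, 13 of IV and 17 of V. The mitochondrial DNA has 13 subunit genes, which were each listed at 0 counts in all 18 libraries, so the mitochondrially encoded partners of these proteins could not be set beside them. In bulk tissue, fewer cells of a type and less RNA per cell cannot be told apart.

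Mice G9 and G4 stood apart in cell-type markers. Among the tested members, G9 had the highest value of all mice for 43 and G4 for 11. The lowest value fell in G79 for 17 members and in vehicle mouse G1 for 15. Vehicle mouse G9 had the lowest summed glutamatergic neuron markers of all 18 mice, at 1052 CPM against 3778 to 6290 CPM in the other vehicle mice. Mouse G4, of the 500 mg/kg group, had the highest summed oligodendrocyte markers, at 17470 CPM against 6213 to 10790 CPM in the other mice at that dose. Midbrain dopamine neuron markers summed to 466 CPM in G4 and to between 153 and 253 CPM in the other 3, against 62.7 to 227 CPM in the vehicle mice. Glutamatergic neuron markers were also low in G4, at 1249 CPM against 2630 to 3796 CPM in the other mice at that dose. Some of these differences in tissue content move with the groups, and others set single mice of the vehicle and 500 mg/kg groups apart. Their part in the values below was not tested. Results are therefore also given without G4 and G9.

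The regions ahead of the transcription starts are shown for the members with the smallest dose-regression p, Atp5l and Atp5h of complex V, for Cox6a1, the most abundant member of complex IV, and for Atp5b, the most abundant member, because the members were seen to vary together from mouse to mouse. They are the 250 bases before the annotated start in RefSeq, build GRCm38.p6, written in the direction of the gene. Atp5l is from chr9:44920743-44920992 (minus strand), Atp5h from chr11:115419920-115420169 (minus strand), Cox6a1 from chr5:115348959-115349208 (minus strand) and Atp5b from chr10:128083057-128083306 (plus strand). Capitals mark matches to the cores of 2 motifs known from nuclear genes of respiration, NRF1 (TGCGCA) and the ETS factor GABPA (CCGGAAG, here read on the reverse strand).
Atp5l: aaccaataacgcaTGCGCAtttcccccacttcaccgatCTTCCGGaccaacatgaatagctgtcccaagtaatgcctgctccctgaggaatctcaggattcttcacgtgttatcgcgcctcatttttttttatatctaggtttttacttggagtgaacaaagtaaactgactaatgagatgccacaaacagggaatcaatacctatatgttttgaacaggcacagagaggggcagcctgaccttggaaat
Atp5h: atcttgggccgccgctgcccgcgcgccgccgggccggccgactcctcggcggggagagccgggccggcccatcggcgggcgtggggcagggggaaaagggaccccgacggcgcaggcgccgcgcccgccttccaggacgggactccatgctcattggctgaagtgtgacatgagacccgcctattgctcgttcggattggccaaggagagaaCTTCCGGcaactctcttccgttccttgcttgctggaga
Cox6a1: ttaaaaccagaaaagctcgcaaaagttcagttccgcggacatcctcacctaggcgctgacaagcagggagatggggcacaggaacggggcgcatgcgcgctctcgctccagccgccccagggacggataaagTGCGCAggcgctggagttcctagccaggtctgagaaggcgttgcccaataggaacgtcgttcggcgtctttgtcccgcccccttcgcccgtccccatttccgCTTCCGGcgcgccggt
Atp5b: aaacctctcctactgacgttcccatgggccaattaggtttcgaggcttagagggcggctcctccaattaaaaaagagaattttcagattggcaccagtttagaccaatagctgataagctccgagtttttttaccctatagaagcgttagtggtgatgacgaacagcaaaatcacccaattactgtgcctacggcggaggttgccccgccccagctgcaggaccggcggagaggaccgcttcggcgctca

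The Atp5l window held an NRF1 core that starts 237 bases before the start and an ETS match at 212 bases before it. In Atp5h a single ETS match lay 38 bases ahead of the start, and in Cox6a1 an NRF1 core lay at 118 bases and an ETS match at 16 bases. The Atp5b window held neither, nor the YY1 core (AAGATGG), which was searched as well. Over windows that also take in the 50 bases after the start, 68 members had a sequence. On either strand, 18 of them (26.5%) held the NRF1 core, against 8.79% of all 27025 genes with a window and 14.7% of the 11945 tested genes with one. The ETS match was present in 17 members (25%), against 9.93% and 17.6%, and the YY1 core in 11 members (16.2%), against 7.28% and 7.83%. At least 1 of the 3 motifs was found in 37 of the 68 members (54.4%), against 34.2% of the tested genes. These are matches of letters and do not show binding. Whether they bear on the variation shared between members was not tested. The correlation with the mean of the other members was 0.833 for Atp5b, which held no match. It was 0.852 for Atp5l and 0.442 for Cox6a1, with NRF1 and ETS matches, and 0.765 for Atp5h, with an ETS match.

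Levels of the complexes differed widely between mice within each dose. In vehicle mice all members together summed to 2944 ± 610 CPM (SD, n = 5), and in the groups at 125, 250 and 500 mg/kg the sums were 2814 ± 377 (n = 5), 2476 ± 324 (n = 4) and 2758 ± 519 (n = 4). The vehicle mice ran from 2145 to 3710 CPM, a span that held every mouse of the 3 dosed groups. Complex V contributed most, with 1406 ± 300 CPM (n = 5) in vehicle and 1368 ± 242 (n = 4) at 500 mg/kg, and Atp5b and Atp5a1, the catalytic beta and the alpha subunit of its F1 head, were the most abundant members, with 271 and 173 CPM per kb.

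Complex I summed to 660.4 ± 156 CPM (n = 5) in vehicle mice, followed with rising dose by 577 ± 87.2 (n = 5), 540.0 ± 69.96 (n = 4) and 581 ± 109.8 (n = 4). Complex II, which has no mitochondrially encoded part, summed to 178 ± 17.9 CPM (n = 5) in vehicle and 178 ± 43.5 (n = 4) at 500 mg/kg. Complex III summed to 294 ± 69.6 (n = 5) in vehicle and 277 ± 58.9 (n = 4) at 500 mg/kg, and complex IV to 406 ± 70.6 (n = 5) and 355 ± 69.6 (n = 4). For every complex, the difference between vehicle and 500 mg/kg was smaller than the SD within the vehicle group.

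**Figure D1:**
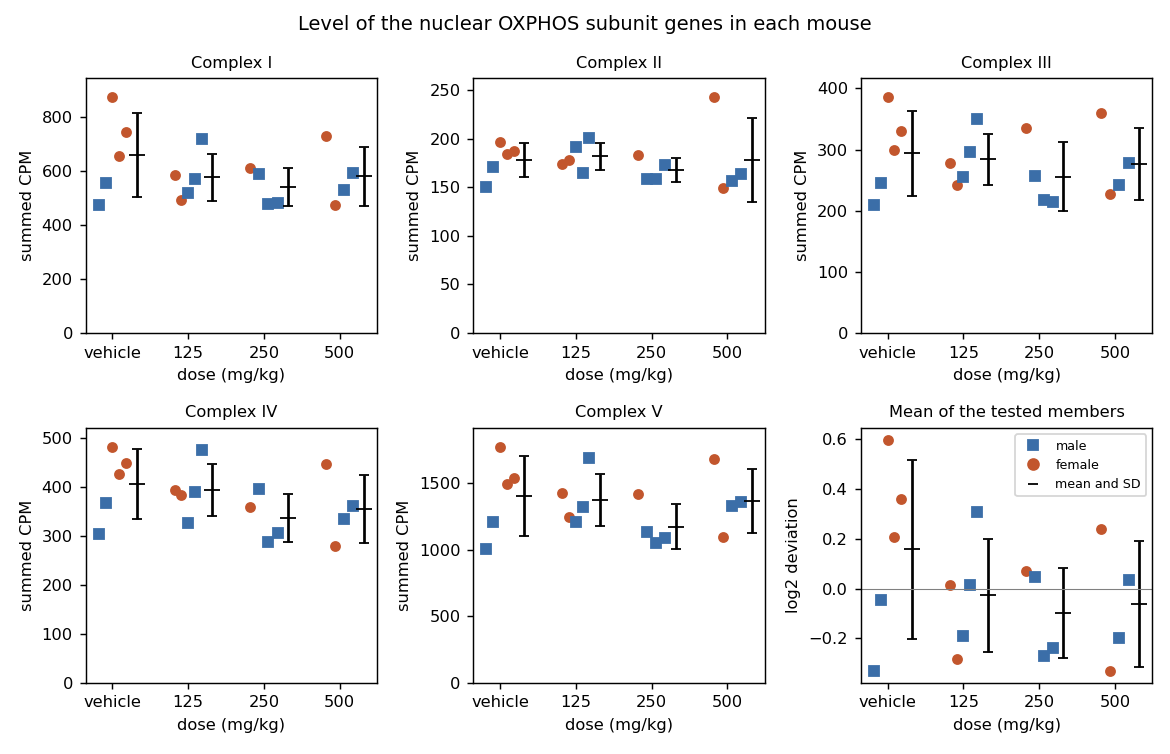
Summed CPM of the members of each complex and, in the last panel, the mean log2 deviation of the 74 tested members from their own means, for each of the 18 mice by dose in mg/kg. Squares are males, circles are females, and bars show the group mean and SD. The dosed groups lie within the span of the vehicle mice in the last panel except mouse G79, at -0.332 against a lowest vehicle value of -0.33.

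The vehicle group itself was split by sex. Its 3 females, G9, G15 and G18, had mean member deviations of 0.598, 0.208 and 0.36 on the log2 scale, and its 2 males, G1 and G5, of -0.33 and -0.0474. At 500 mg/kg the females were the highest and the lowest of the group, with G4 at 0.24 and G79 at -0.332, and the males G87 and G90 lay between them at -0.197 and 0.0355. The mean was 0.158 ± 0.359 (SD, n = 5) for vehicle, and with rising dose it was -0.0273 ± 0.228 (n = 5), -0.0992 ± 0.181 (n = 4) and -0.0635 ± 0.253 (n = 4). The 4 groups overlapped.

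The first comparison asked whether any member changed along the dose. Of the 74 members, 0 passed an adjusted p of 0.05 in either direction (edgeR quasi-likelihood test with Benjamini-Hochberg adjustment over all genes), against 46 of all 15863 genes (0.290%). DESeq2 and limma-voom also called 0. At an unadjusted p under 0.05, 8 members had a negative slope and 0 a positive one with edgeR, 8 and 0 with DESeq2, and 7 and 0 with limma-voom. Over all genes tested with edgeR, 5.28% had a negative slope at that level. The 8 members varied together across mice to differing degrees. Their correlation with the mean of the other members ran from 0.442 for Cox6a1 to 0.853 for Ndufb4. The smallest adjusted p of any member was 0.257, for Atp5l.

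Slopes were nonetheless mostly negative. Of the 74 members, 58 (78.4%) had a negative slope, with a median of -0.19, against 48.8% and a median of 0.01 for all genes. Among other genes with a transcript length under 750 nt 57% were negative, and from 750 to under 1500 nt 54.5%. The members varied together across mice (median r of 0.741 with the mean of the others), so their slopes are not 74 separate observations. Individual slopes ran from -0.77 for Atp5k to 0.32 for Cox7a2, and the SE of a single member's slope had a median of 0.23. The median was -0.19 without G4 and G9 together, with 7 members at an unadjusted p under 0.05. The 2 removals moved it in opposite directions, to -0.27 without G4 and -0.07 without vehicle mouse G9. The joint run therefore cannot show that the median is independent of either mouse. The median was also -0.07 without G79 of the 500 mg/kg group. The number of members at an unadjusted p under 0.05 was 2 without G79, 4 without vehicle mouse G15, and 5 without either of the vehicle mice G9 and G18, and it was 12 without G4. For these runs and later ones without single mice, the share of all genes at that level was not counted.

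**Figure D2:**
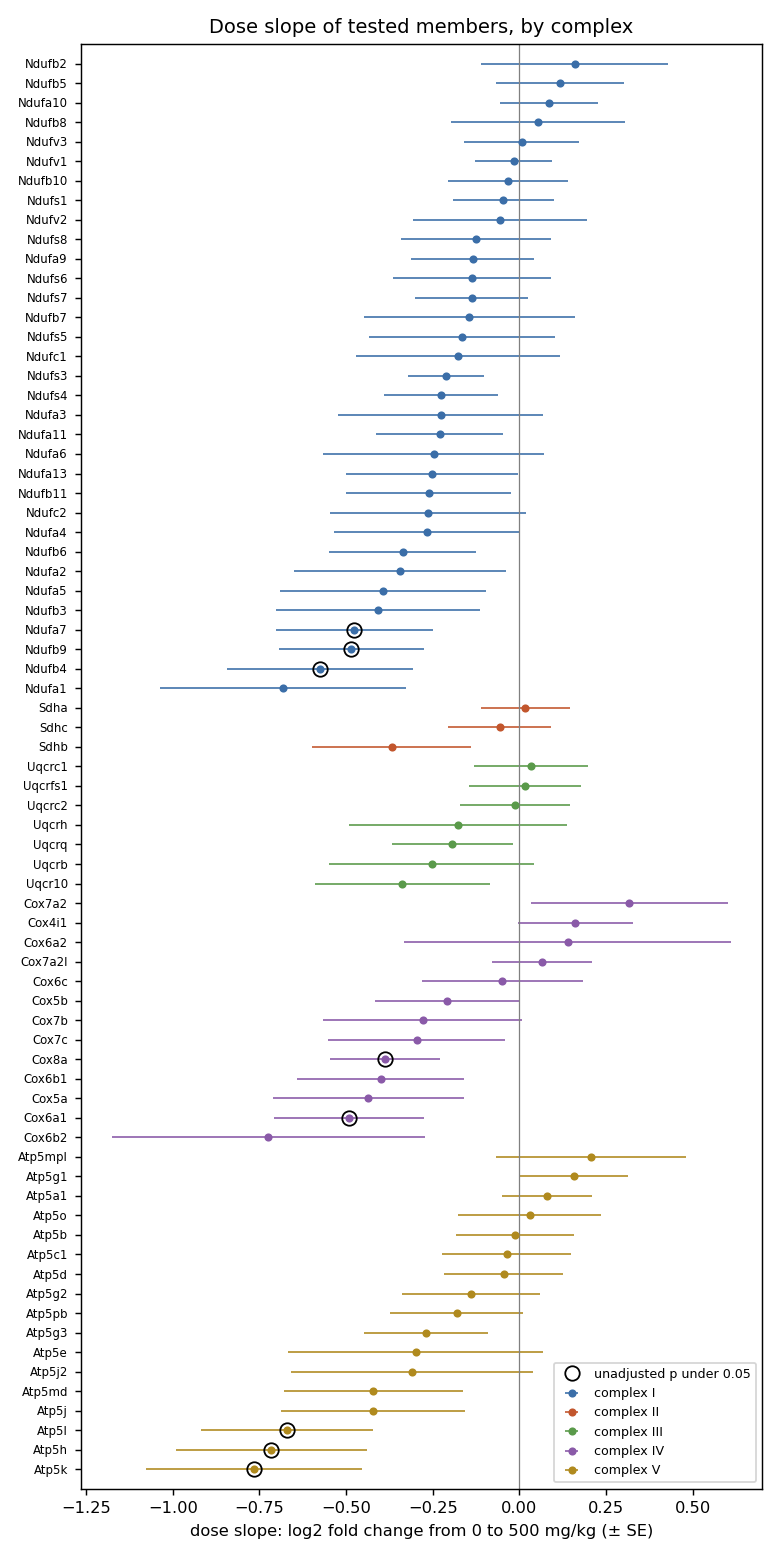
Dose slope of the tested members reported by name, as the fitted log2 change from 0 to 500 mg/kg, with bars of ± 1 SE and colours by complex. The 8 circled members have an unadjusted p under 0.05, all with negative slopes, and none passes the adjusted threshold.

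Within complex V, the ATP synthase, 13 of 17 members had a negative slope and the median was -0.18, which was -0.07 without G79 and -0.12 without G9. Atp5l (chr9:44913248-44920742) encodes subunit g of the membrane sector. Values are given in the order G1, G5, G9, G15 and G18 for vehicle, G25, G29, G34, G40 and G45 for 125 mg/kg, G49, G64, G66 and G71 for 250 mg/kg, and G4, G79, G87 and G90 for 500 mg/kg. Atp5l measured 11.4, 16.2, 30.6, 23.9 and 21.1 CPM in the vehicle mice and 16.5, 10.8, 9.96, 17.7 and 24.1 CPM at 125 mg/kg. It measured 12.8, 15.7, 12.9 and 12.4 CPM at 250 mg/kg and 16.2, 12.9, 9.46 and 11.5 CPM at 500 mg/kg. The 3 vehicle females were above every mouse of the upper 2 doses, while vehicle male G1 was below most of them. The slope was -0.67 ± 0.25 (SE, adjusted p = 0.257, edgeR), and 11 other genes hold a stretch near-identical to its transcript, so that reads may be shared.

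Atp5h (chr11:115415691-115419919) encodes subunit d of the peripheral stalk. Its CPM were 46.5, 56.0, 84.6, 58.7 and 74.5 in vehicle mice and 54.3, 29.6, 34.9, 40.5 and 60.6 at 125 mg/kg. At 250 mg/kg they were 33.8, 35.6, 32.1 and 40.4, and at 500 mg/kg 54.4, 15.6, 38.6 and 40.5. This was the 1 member whose 4 mice at 250 mg/kg were all below every vehicle mouse, a pattern that 0.523% of all genes showed, and no member did so at 125 mg/kg (1.68% of all genes) or at 500 mg/kg (0.933%). The slope was -0.72 ± 0.27 (adjusted p = 0.274, edgeR). It was -0.46 without G79, which had the lowest value of all mice, and -1.04 without G4. Near-identical stretches were found in 4 other genes and covered 77.8% of its transcript.

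Atp5k (chr5:108433246-108434399) encodes subunit e, which takes part in holding ATP synthase dimers together. Vehicle mice had 8.01, 13.2, 22.3, 16.7 and 19.8 CPM and mice at 125 mg/kg 14.2, 10.1, 8.84, 14.3 and 15.2 CPM. The values were 7.89, 11.2, 6.89 and 7.31 CPM at 250 mg/kg and 13.5, 3.52, 9.20 and 10.6 CPM at 500 mg/kg. The groups overlapped, and the slope, -0.77 ± 0.31, was the most negative of all members (adjusted p = 0.302, edgeR). It was -0.48 without G79 and -1.06 without G4. No other gene held a near-identical stretch of the transcript searched. Atp5md, a small accessory subunit of the membrane sector, followed with -0.42 ± 0.26 (adjusted p = 0.501, edgeR).

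Atp5b, in vehicle mice at 548 ± 133 CPM (SD, n = 5), was measured with rising dose at 533.5 ± 100 (n = 5), 443 ± 69.07 (n = 4) and 540 ± 95.4 (n = 4). The Atp5b slope was -0.01 ± 0.17, and that of Atp5a1 was 0.08 ± 0.13. Atp5c1 and Atp5d, the gamma and delta subunits of the central stalk, had slopes of -0.04 ± 0.19 and -0.04 ± 0.17, and Atp5e, the epsilon subunit of the same stalk, of -0.30 ± 0.37. The 3 genes for subunit c, whose mature proteins form the rotating ring and are the same, were Atp5g3, Atp5g2 and Atp5g1. In that order they had 39.4, 29.2 and 20.95 CPM per kb, and slopes of -0.27 ± 0.18, -0.14 ± 0.20 and 0.16 ± 0.16. Without division by length their means were 28.3, 19.9 and 56.05 CPM, which puts Atp5g1 first. The order per kb rests on a median transcript length of 2675.5 nt for Atp5g1, which also has a transcript of 691 nt.

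**Figure D3:**
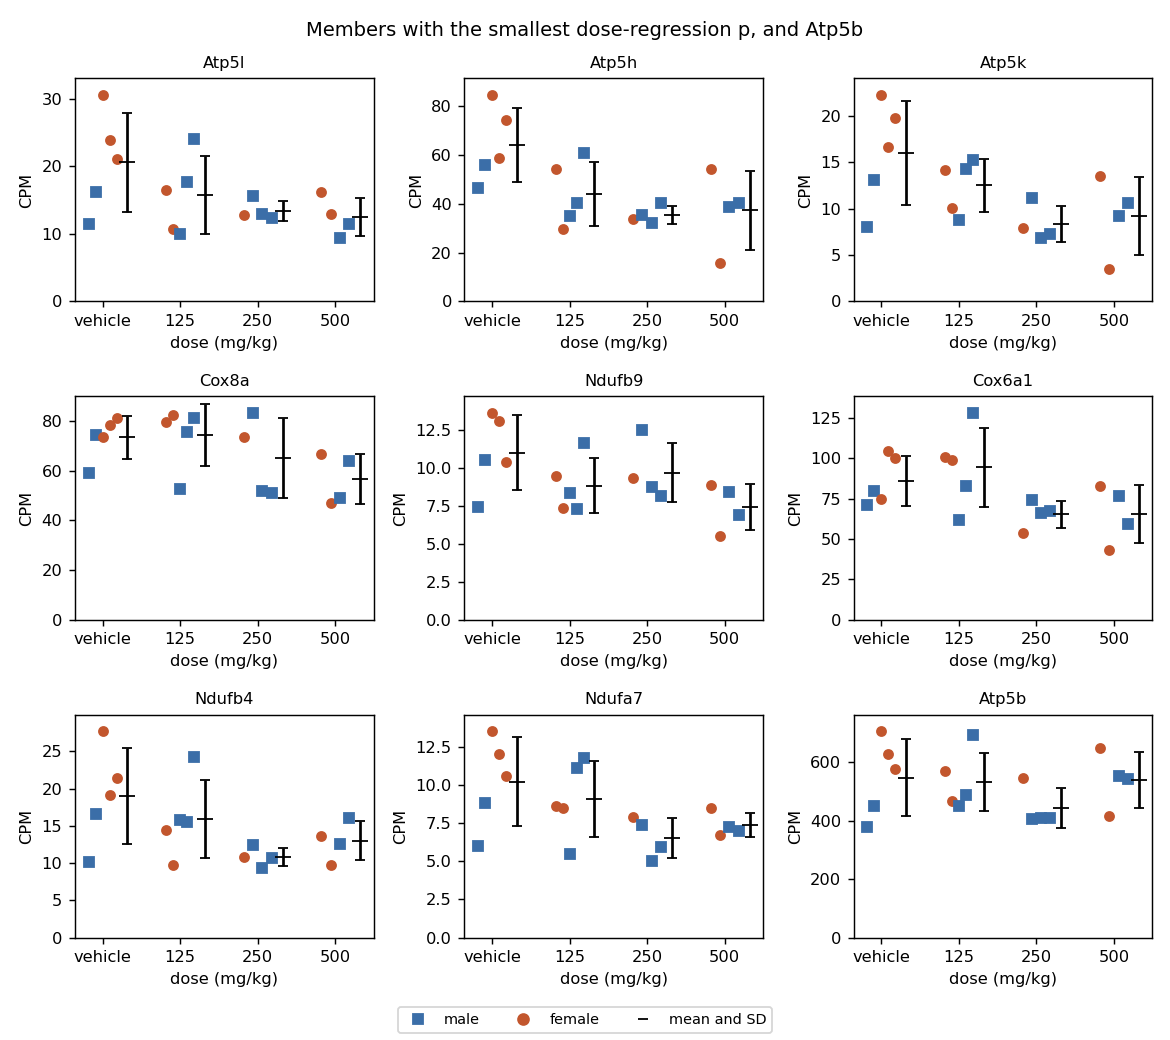
CPM of the 8 members with an unadjusted dose-regression p under 0.05, and of Atp5b, in each mouse by dose in mg/kg. Squares are males, circles are females, and bars show the mean and SD of each group. The 3 vehicle females lie high in most panels, and for Atp5h all 4 mice at 250 mg/kg lie below the lowest vehicle mouse.

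Complex IV, cytochrome c oxidase, had the most negative median slope of the 5 complexes, -0.28, with 9 of 13 members negative. This median was -0.10 without either G9 or G79, -0.02 without the vehicle group and -0.52 without the 500 mg/kg group, and without G9 that of complex V was the more negative. Cox8a (chr19:7215158-7217616), a small nuclear subunit of the membrane part, measured 59.3, 74.5, 73.6, 78.4 and 81.5 CPM in vehicle mice and 79.5, 82.5, 52.7, 75.7 and 81.5 CPM at 125 mg/kg. It measured 73.7, 83.3, 51.9 and 51.05 CPM at 250 mg/kg and 66.7, 47.1, 49.1 and 63.96 CPM at 500 mg/kg. At 500 mg/kg 2 of the 4 mice were below every vehicle mouse. The slope was -0.39 ± 0.16 (adjusted p = 0.304, edgeR).

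Cox6a1 (chr5:115345652-115348958), a regulatory subunit, had 70.9, 79.8, 74.9, 105 and 100.3 CPM in vehicle mice and 101, 98.9, 61.9, 82.75 and 128 CPM at 125 mg/kg. At 250 mg/kg it had 53.5, 74.0, 66.2 and 67.4 CPM and at 500 mg/kg 83.1, 43.2, 76.6 and 59.4 CPM. The mean was higher at 125 mg/kg than in vehicle and lower at the upper 2 doses, and the ranges overlapped throughout. The slope was -0.49 ± 0.22 (adjusted p = 0.338, edgeR), and it was -0.32 without G79 and -0.66 without G4. Cox6b1, a subunit that faces the intermembrane space, had a slope of -0.40 ± 0.24 (adjusted p = 0.493, edgeR). Cox5b, a zinc-binding subunit, differed little along the dose, with -0.21, and had a difference of -0.55 ± 0.22 log2 units between 250 mg/kg and vehicle, which did not pass adjustment.

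The isoform pairs of complex IV showed the ubiquitous version well above the tissue-restricted one. Cox4i1 averaged 53.9 CPM per kb, against 0.422 for Cox4i2, the form known from lung. Cox6a1 averaged 139 CPM per kb, against 3.28 for Cox6a2, the striated muscle form. Cox6b1 averaged 30.1 CPM per kb, against 4.15 for the testis form Cox6b2. For the Cox7a forms the order was Cox7a2l with 86.8, Cox7a2 with 5.08 and the muscle form Cox7a1 with 1.36 CPM per kb, where Cox7a2l is known to act in supercomplex assembly. Cox7b averaged 27.4 CPM per kb against 0.280 for the testis form Cox7b2, and Cox8a 124 against 1.015 for the muscle form Cox8b, while the testis form Cox8c had 0 counts in every library. Striated muscle markers summed to between 12.4 and 32.7 CPM over all mice.

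The tested isoforms did not share a direction. Cox7a2 had the highest slope of all members, 0.32 ± 0.28, Cox4i1 had 0.16 ± 0.17, Cox7a2l 0.07 ± 0.14 and Cox6a2 0.14 ± 0.47. Cox7b had -0.28 ± 0.29 and Cox6b2 -0.72 ± 0.45. Each of these slopes lay within 2 SE of 0. Cox6a2 ranged from 0.776 CPM in vehicle mouse G9 to 7.015 CPM in mouse G45 at 125 mg/kg, a wider span on the log2 scale than that of any other tested member.

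In complex I, the NADH dehydrogenase, 29 of 34 tested members had a negative slope, with a median of -0.20. The median was -0.08 without either G9 or G79, and 0.05 in males alone. Ndufb9, Ndufb4 and Ndufa7, accessory subunits that do not carry electrons, had the smallest p. Ndufb4 measured 10.2, 16.6, 27.7, 19.2 and 21.4 CPM in vehicle mice and 14.4, 9.75, 15.8, 15.5 and 24.3 CPM at 125 mg/kg. It measured 10.85, 12.4, 9.345 and 10.7 CPM at 250 mg/kg and 13.6, 9.72, 12.6 and 16.05 CPM at 500 mg/kg. Vehicle male G1 again lay among the dosed mice and the other 4 vehicle mice lay above all mice of the upper 2 doses. The slope was -0.58 ± 0.27 (adjusted p = 0.369, edgeR). Near-identical stretches in 2 other genes covered 40.2% of its transcript.

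Ndufb9 averaged 11.01 ± 2.49 CPM (SD, n = 5) in vehicle, 8.82 ± 1.81 (n = 5), 9.70 ± 1.96 (n = 4) and 7.42 ± 1.52 (n = 4) at the rising doses. Its slope was -0.48 ± 0.21 (adjusted p = 0.331, edgeR). Ndufa7 averaged 10.2 ± 2.91 CPM (n = 5), 9.09 ± 2.50 (n = 5), 6.55 ± 1.31 (n = 4) and 7.36 ± 0.781 (n = 4) in the same order, with a slope of -0.48 ± 0.23 (adjusted p = 0.378, edgeR). Ndufs3, a core subunit of the part that reduces ubiquinone, came next with -0.21 ± 0.11 (adjusted p = 0.417, edgeR). The most abundant complex I member per kb was Ndufb10, with 65.97 CPM per kb and a slope of -0.03 ± 0.17.

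Among the core subunits, which belong to the part of complex I that carries the electrons, Ndufv1, which binds NADH and flavin, had a slope of -0.02, Ndufs1 -0.05, Ndufv2 -0.06, Ndufs8 -0.13, Ndufs7 -0.14 and Ndufs3 -0.21. Ndufa1, an accessory subunit of the membrane arm, had the most negative slope of the complex, -0.68 ± 0.35, with an adjusted p of 0.422 (edgeR). Ndufa4, which is named for complex I but is known as a component of complex IV, had a slope of -0.27.

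Complex II had a median slope of -0.06 over 3 tested members, and complex III of -0.18 over 7. Without G79 these medians were 0.05 and 0.02. That of complex II was -0.21 without G4, and that of complex III was -0.01 without G9 and -0.10 without G18, and -0.45 in females and 0.06 in males alone. Sdha, the flavoprotein that oxidises succinate, had a slope of 0.02 ± 0.13, and Sdhc, a membrane anchor, of -0.06 ± 0.15. Sdhb, the iron-sulphur subunit, had -0.37 ± 0.23 (adjusted p = 0.513, edgeR). Mouse G4 had 177 CPM of Sdha, above the 101 to 108 CPM of the other mice at 500 mg/kg and above every vehicle mouse.

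In complex III, the core subunits Uqcrc1 and Uqcrc2 had slopes of 0.03 and -0.01 and the Rieske iron-sulphur protein Uqcrfs1 of 0.02. The small subunits were lower, with Uqcr10 at -0.34 ± 0.25, Uqcrb at -0.25 ± 0.30, Uqcrq at -0.19 ± 0.17 and Uqcrh, the hinge protein, at -0.18 ± 0.31. Uqcrb ranged from 11.1 to 41.9 CPM within the vehicle mice alone. No slope of complex II or III had an unadjusted p under 0.05.

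Each dose was also compared with vehicle. The 3 comparisons share the same 5 vehicle mice, so that a high or low vehicle mouse moves all of them. No member was called at any dose with edgeR, DESeq2 or limma-voom, against 3 of all genes at 500 mg/kg (0.0189%) and 0 at 250 and 125 mg/kg (0% each) with edgeR. At 500 mg/kg, 55 of 74 members were lower than vehicle, against 50.2% of all genes, with a median difference of -0.22 log2 units. Atp5h, Ndufb9, Atp5l and Atp5k had an unadjusted p under 0.05 (edgeR), all lower, against 4.07% of all genes lower at that level. DESeq2 and limma-voom gave 6 members each. The median was -0.07 without G79, -0.11 without vehicle mouse G9 and -0.19 without both G4 and G9. Without G4 alone 63 members were lower, so G4 and G9 pulled in opposite directions here too. The count of 4 became 13 without vehicle mouse G1, 11 without G4, 9 without G90, and 2 without G9 or G79.

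At 250 mg/kg, 66 of 74 members were lower than vehicle, against 50.1% of all genes, and the median was -0.19. Ndufb4, Atp5h, Cox5b, Atp5k, Ndufa7 and Ndufa11 had an unadjusted p under 0.05, 6 of 74 members against 1.56% of all genes lower at that level, and their adjusted p were all 1 (edgeR). The difference was -0.83 ± 0.28 for Ndufb4, -0.83 ± 0.30 for Atp5h and -0.85 ± 0.34 for Atp5k. DESeq2 and limma-voom also gave 6. The median was -0.10 without G9 and -0.29 without G1, and the count was 15 without G1, 3 without G9 or G66, and 2 without G71.

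At 125 mg/kg the median was -0.19, with 55 of 74 members lower than vehicle, against 50.2% of all genes. Here 0 members had an unadjusted p under 0.05 (edgeR), against 6.51% of all genes lower at that level. DESeq2 and limma-voom also gave 0. The median was -0.07 without G29, -0.09 without G9 and -0.29 without G1, and the count became 10 without G1 or G45. Without G4 and G9 together the median was -0.09 and 46 members were lower. In the test for any difference among the 4 groups, 0 members were called (0.0441% of all genes), and Atp5h, Ndufb4 and Cox6a1 had an unadjusted p under 0.05, 3 of 74 against 15% of all genes. With DESeq2 and limma-voom, 4 and 1 members did. Leaving out 1 mouse moved this count between 0 and 8.

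The dose slope was compared between the sexes with an interaction term. No member was called with edgeR, DESeq2 or limma-voom, and no gene at all with edgeR (0%). The slope was higher in males for 60 of 74 members, against 7800 of all 15863 genes. The median difference was 0.33 log2 units for the members, with a median SE of 0.46, and -0.01 for all genes. Ndufs7 and Ndufa3 had an unadjusted p under 0.05, with differences of 0.70 ± 0.29 and 1.23 ± 0.53, against 1% of all genes higher at that level (adjusted p of 1 each, edgeR). Fitted in males alone, the median member slope was 0.03 with 35 of the members negative, and in females alone it was -0.34 with 62 negative. The count of 2 became 20 without G4, where the median was 0.66, and 0 without G9 or G79, where it was 0.19 and 0.17. It was 5 without G45, 4 without G29 or G87 and 1 without G1, G18 or G90. Without G4 and G9 together, whose single removals moved the median in opposite directions, it was 0.50, with 8 members higher.

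The members varied together across mice. The level of a member on the log2 scale correlated with the mean of the other members with a median r of 0.741 over the 18 mice, and 64 of 74 members had an r over 0.5. The highest values were 0.969 for Uqcrb, 0.951 for Cox6b1 and 0.938 for Ndufs8, and the lowest were -0.00439 for Atp5j2, 0.0205 for Cox6a2 and 0.077 for Atp5mpl. These correlations share the libraries and their scaling and are given as a description. Vehicle mouse G9 had the highest value of the 18 mice for 43 of the 74 members, and G4 for 11. The lowest value fell in G79 for 17 members and in vehicle mouse G1 for 15.

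**Figure D4:**
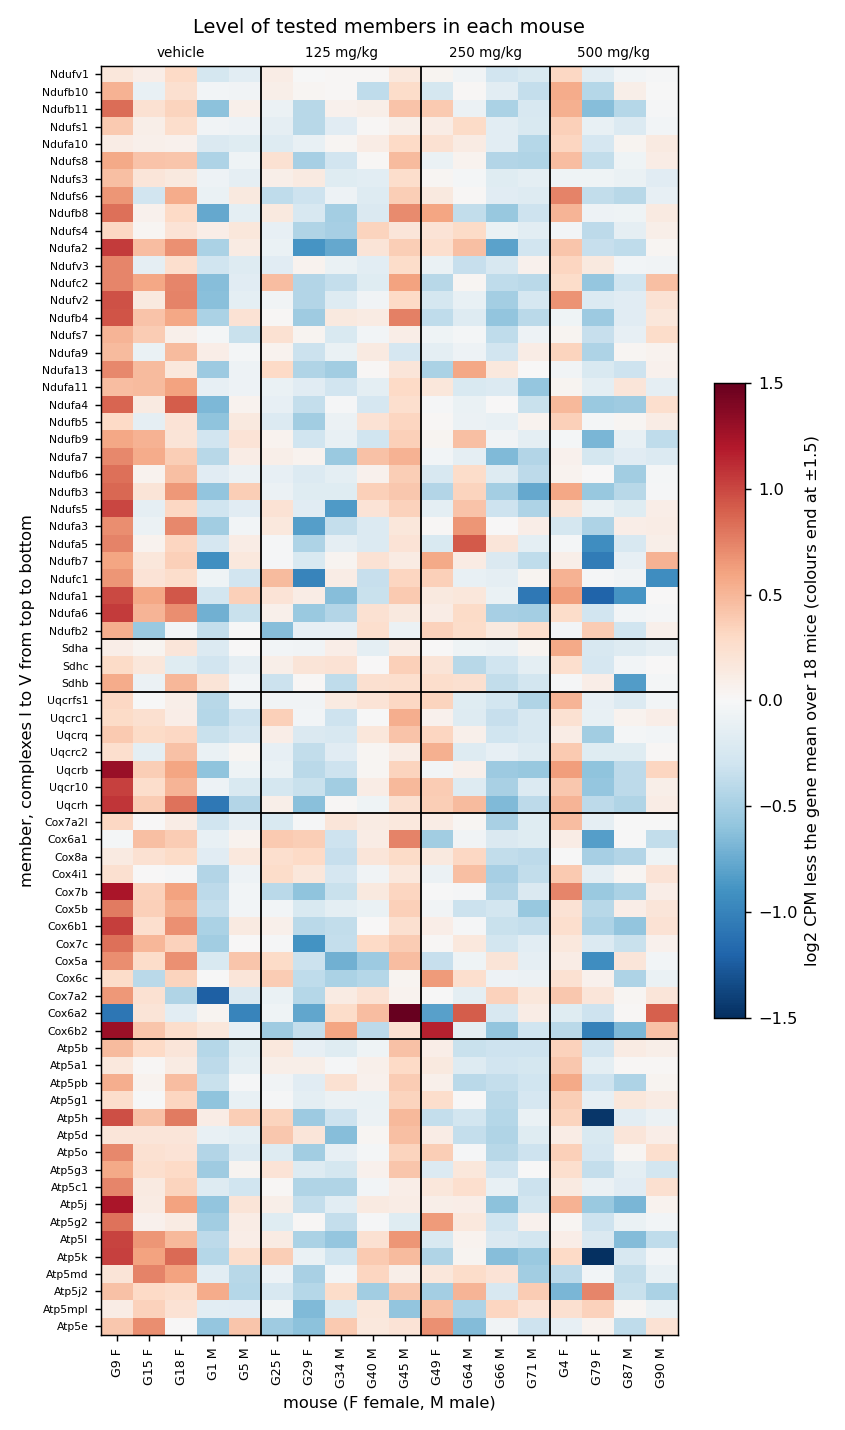
Level of the tested members reported by name in each mouse, as log2 CPM less the gene's mean over the 18 mice, with complexes I to V from top to bottom and mice grouped by dose and sex (F female, M male). Colours end at ±1.5. Columns G9 and G45 are mostly red, with 72 and 70 of the 74 members above their own mean, and columns G1 and G79 mostly blue, with 7 and 9.

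The genes outside the set that were most like its mean over the 18 mice were the ribosomal protein gene Rps7 (r = 0.946), the peroxiredoxin Prdx5 (0.934), Btf3 (0.932), the ribosomal protein gene Rpl23 (0.929) and Atpif1 (0.928), the inhibitor of ATP synthase. By the median over a gene's protein-coding transcripts they were all short, between 500.5 and 888 nt. By the same measure the members were short, with a median of 648 nt against 2284 nt for all tested genes. Of the 74, 46 were under 750 nt, which is 62.2% against 8.71% of all genes.

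Slope and length moved together among the members. Across the 74 genes the slope correlated with log10 transcript length with r = 0.471 (rho = 0.465), against 0.0986 (rho = 0.114) over the 14389 genes with a length, where genes are not independent replicates. Members under 750 nt had a median slope of -0.26 and other genes of that length -0.06. From 750 to under 1500 nt the medians were -0.14 for 23 members and -0.03 for 2998 other genes, and from 1500 to under 3000 nt they were 0.08 for 5 members and 0.01 for 5196 others. These lengths are medians over a gene's protein-coding transcripts. Among these 5 members, Ndufb2, Atp5g1 and Sdha had medians of 2413, 2675.5 and 1811 nt and also transcripts of 455, 691 and 722 nt. The class under 750 nt in turn held Ndufs1 and Uqcrc1, with medians of 651 and 533 nt but 8086 and 4135 exon bases. A short median therefore does not make every member of that class a short gene. The class medians, the correlation and the CPM per kb values rest on this choice of length, and other lengths were not tried. With a length curve fitted to each library, the median member slope was -0.09 and 49 of 74 members were negative, with 4 at an unadjusted p under 0.05. Among non-members under 750 nt, the median log2 deviation was highest in G9, at 0.187, and lowest in G79, at -0.0958, the same 2 mice as for the members.

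**Figure D5:**
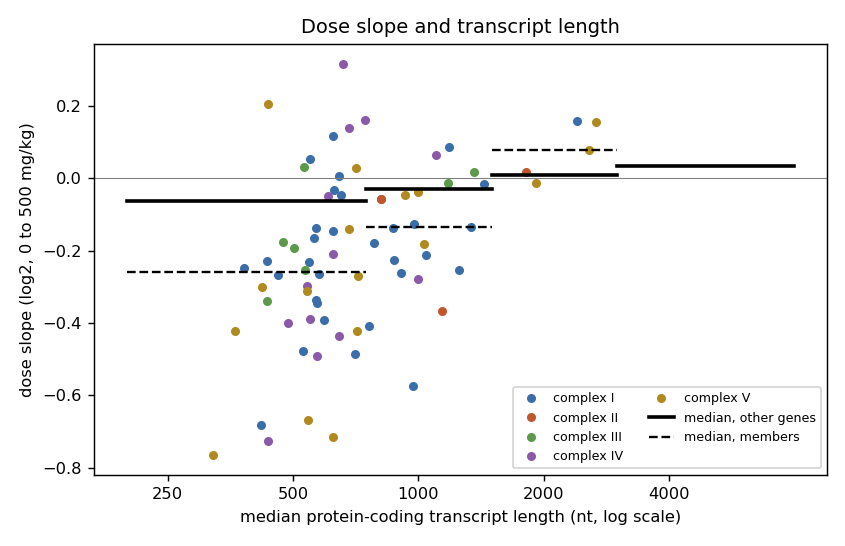
Dose slope of the tested members reported by name against its median protein-coding transcript length in nt (log axis), coloured by complex. Dashed lines are medians of the members and solid lines medians of all other genes within 4 length classes, and both are lowest in the class under 750 nt.

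The 9 members left had too few counts to be tested. Cox8c had 0 counts in all 18 libraries. Cox4i2, Cox7a1, Cox7b2 and Cox8b, all tissue-restricted forms, had at most 13 counts in a library. The other 4 encode constitutive subunits, and yet Ndufa8 had 0 to 8 counts, Ndufa12 0 to 6, Sdhd 0 to 4 and Uqcr11 0 or 1 per library. A near-identical stretch was found in 1 other gene for Ndufa12, covering 71% of the transcript searched, and in 2 for Uqcr11, covering 38.4%. For Ndufa8 and Sdhd it was found in none. Over all 83 members, 29 had such a stretch in at least 1 other gene and 13 had it over at least 50% of the transcript, of which 1 was untested. Exon bases were shared with another gene, on either strand, for 29 members, up to 39.0% on the opposite strand for Ndufb6 and 35.6% for Atp5o. How the counting treated such reads is not given in the sources used here.

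Genes that work alongside the complexes were compared by lists. Of 16 tested complex I assembly factors 0 were called, 4 had a negative slope and the median was 0.13, with Ndufaf3 (-0.32 ± 0.12) and Ndufaf7 (-0.35 ± 0.16) at an unadjusted p under 0.05. Of all genes, 5.28% were negative at that level. Assembly factors of complex II (4 tested), III (6), IV (22) and V (5) had medians of -0.10, -0.07, 0.06 and 0.01, and 0 were called. Their smallest p were those of Sdhaf3 (0.38) and Sdhaf4 (-0.36), Uqcc1 (0.25) and Uqcc2 (-0.38), Cox18 (-0.37) and Fastkd2 (0.34), and Atpaf1 (0.22) and Atpaf2 (0.19), given as slopes. The copper chaperone gene Sco2 was listed at 0 counts in all libraries. Of 14 TCA cycle enzymes 5 had a negative slope and the median was 0.01, with Ogdh at 0.25 ± 0.12 and Dlst at 0.13 ± 0.12. The 4 further components of the chain outside the name rule had a median of 0.12, with Atpif1 at -0.32 ± 0.21 and cytochrome c1, Cyc1, at 0.11 ± 0.15.

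Of 77 tested mitochondrial ribosomal protein genes 41 had a negative slope, and the median was -0.03. An unadjusted p under 0.05 was reached by 4, all negative, against 5.28% of all genes negative at that level. The smallest p were those of Mrpl11 (-0.47 ± 0.15, adjusted p = 0.177, edgeR) and Mrpl16 (-0.35 ± 0.14). Of 18 regulators of mitochondrial biogenesis 7 were negative, with Tfb1m at -0.69 ± 0.31, Gabpa at -0.21 ± 0.10 and Ppargc1a, the coactivator PGC-1alpha, at 0.29 ± 0.14, each at an unadjusted p under 0.05. Of 22 import, carrier and chaperone genes 15 were negative with a median of -0.05, led by Tomm7 (-0.66 ± 0.27) and Phb2 (-0.28 ± 0.13). Of 9 antioxidant and uncoupling genes 4 were negative, with Slc25a27 at 0.33 ± 0.15 and Slc25a14 at -0.31 ± 0.14. Of all 15863 genes, 837 were negative and 1254 positive at an unadjusted p under 0.05. None of the listed genes above passed the adjusted threshold with edgeR. Among cell-type markers, glutamatergic neuron genes had a median slope of -0.93 (0 of 18 called) and oligodendrocyte genes of 0.71 (0 of 14 called). Of 8 tested midbrain dopamine neuron genes 3 were called higher, against 39 of all 15863 genes. They were Slc6a3, Ddc and Chrna6, with slopes of 6.30, 2.58 and 2.93. The part of these marker genes in the member values was not tested.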

How the data were processed

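Gene counts from 18 mice, 1 library each, were analysed. The authors deposited raw counts per Entrez gene, made by aligning stranded total RNA reads of 100 bp to GRCm38 with STAR 2.7.5b and counting with featureCounts (the annotation and strand setting are not given in the sources used here). Library totals were 3948096 to 11732885 counts (median 7789800), so counting error is large for members with few counts. Genes were kept by filterByExpr (minimum count 10) and tested with edgeR 4.0.16 (R 4.3.3) by the quasi-likelihood test with TMM factors, with dose or dose group and sex in the model, fitted on all 15863 genes with p-values adjusted by Benjamini-Hochberg at 0.05. The biological coefficient of variation was 25.8%. DESeq2 1.42.0, limma 3.58.1 (voom) and sva 3.50.0 served as alternatives. The code was tested on simulated data. CPM are counts over effective library size, and log2 CPM used a prior count of 2. Litters are not given, and p-values measure the spread between these mice. The members and lists were chosen with earlier results of these data known. Named genes were those called, the 4 members per complex (2 for complex II) with the smallest dose-regression p, the most abundant per kb, isoform pairs, untested members, the 2 genes of each other list with the smallest p and the 5 genes most like the members. Others named were chosen after their values were seen. Near-identical stretches share at least 95% identity over at least 100 bases. In the text and plots 1 gene is not reported here by name, and counts and medians over the members include it.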

Additional observations from a re-analysis of the deposited data

Results flagged for a closer look

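Of 148 groups of 4 or 5 mice examined, 9 held a mouse that lay far from the others by Dixon's criterion, and chance gives about 1 in 20. At 500 mg/kg mouse G4 was highest for the summed complex II level, at 242.4 CPM against 148.8 to 163.7 in the others, and for Sdha, at 177.1 CPM against 100.9 to 108.2. At 125 mg/kg mouse G34 was lowest for Cox8a, at 52.7 CPM against 75.73 to 82.49, and mouse G45 was highest for Atp5g1, at 69.39 CPM against 49.7 to 54.46. Cox6b2 was highest in vehicle mouse G9, at 4.322 CPM against 1.473 to 2.248, and at 250 mg/kg in mouse G49, at 3.946 CPM against 0.9837 to 1.447. At 250 mg/kg mouse G49 was also highest for Atp5b, at 546.5 CPM against 405.1 to 410.5. In the same group mouse G64 was highest for Atp5l, at 15.67 CPM against 12.38 to 12.91, and mouse G71 was lowest for Atp5md, at 2.813 CPM against 4.686 to 5.064.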

How the results depend on the processing

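No member was called in any of the 6 tests under any alternative run. Leaving out 1 mouse moved the median of the members between -0.27 and -0.07 for the dose regression, between -0.30 and -0.07 at 500 mg/kg, between -0.29 and -0.10 at 250 mg/kg, between -0.29 and -0.07 at 125 mg/kg, and between 0.17 and 0.66 for the difference between the sexes, where 0.66 is the value without G4. With 1 surrogate variable the dose regression had a median of -0.35 and 29 members at an unadjusted p under 0.05, against 8, and the 500, 250 mg/kg and any-difference tests had 29, 11 and 17, against 4, 6 and 3. The share of all genes at that level was not counted in the alternative runs, so these counts cannot be called particular to the members. Without the sex covariate the count at 250 mg/kg was 11. Without the vehicle group the median dose slope was -0.02 with 2 such members, and without the 500 mg/kg group it was -0.34 with 4. The cause was not tested. No paired analysis was possible because the groups share no replicate numbers. When mice were blocked by their tag numbers, whose meaning is not given, the median dose slope was -0.26 with 2 such members. Tag 45 held all mice at 250 mg/kg and no others, so that dose and tag cannot be told apart. Only tags 43 and 46 held both vehicle and dosed mice. In both, the vehicle mice were female and the dosed mice male, so the blocked slope rests on mice in which dose and sex differ together. Members of few counts, the absence of mitochondrially encoded counts and the sharing of reads with near-identical genes limit what these libraries can show.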
